A study of Oryza sativa with 36 samples.

Results

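The genes described here are 150 rice genes whose transcript signal peaked in the embryo after 4 h of imbibition and then fell back. The brightest probe set stood for each gene. The genes were chosen by a score from the embryo arrays, the embryo mean at 4 h minus the larger of the embryo means at 0 h and 24 h. Genes whose highest embryo mean lay at 4 h were kept, and the 150 with the highest scores were taken, out of 17905 genes with a probe set of their own. Genes named PDC, ADH, OPR, TIFY or ABA8OX were left out by rule, and 3 OPR genes, with scores of 4.49, 3.52 and 3.38, would otherwise have been within the range. The embryo values therefore chose the genes and are given as description, without a test. The endosperm arrays had no part in the score, but the brightest probe set of a gene was taken over the arrays of both tissues. All tests compare endosperm groups, with the spread between replicates estimated over the 36 arrays of both tissues, and fitted on the endosperm arrays alone the number of genes called higher at 4 h was 131 as well.

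The study followed seeds of Oryza sativa, cultivar Nipponbare where a cultivar is named, through the first 24 h in water. The seeds were unmodified and untreated apart from imbibition, which took place in sterile distilled water, bubbled with air, at 30 °C in the dark. The 0 h groups carry the 30 °C label too and are read here as dry seed. The samples labelled embryo are called embryonic axis in the growth notes. Embryo and endosperm were taken at 0, 4, 8, 12, 16 and 24 h, with 3 Affymetrix rice arrays in each of the 12 groups (36 in total). Values are log2 GCRMA signals, so a difference of 1 is a doubling. GCRMA leaves absent transcripts on a floor, and a mean below 4 is called low here. The samples carry harvest dates, and the 3 endosperm arrays at 0 h, like the 3 at 4 h, came from 3 different days. Nothing in the labels ties replicates to separate seed lots, so the p-values reflect only how much these arrays differed within a group. How much of that spread is technical is not known.

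A dry cereal grain carries stored transcripts from maturation, and water uptake restarts transcription, respiration and repair within hours. The tissue taken as endosperm in a cereal grain holds the starchy endosperm, which is dead at maturity, and usually the aleurone, a living layer that later secretes hydrolases. In plants generally, genes that rise and fall within hours of wetting, touch, cold or wounding include many for WRKY, DREB and NAC transcription factors, GRAS regulators and calcium pumps. Of the 150 genes, 23 carry an informative name in the gene tables used here (15.3%, against 13.8% of all 17905 genes), and the other 127 are known only by a locus identifier, for which no role is given.

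Replicate arrays of a group correlated at 0.989 or higher over all probe sets. The 75th percentile of the arrays was 5.21 to 5.77 in embryo and 4.12 to 4.53 in endosperm, a gap whose cause was not tested and which limits any comparison of levels between the tissues. Of 8 measured endosperm markers, which are storage protein genes, Wx and the regulator NFYB1, the median level was about 13 in endosperm, and in the embryo samples it was 7.89 at 0 h, 7.0 at 4 h and 3.74 at 24 h. NFYB1 stood lower, at 5.58 in endosperm at 0 h and 5.07 at 4 h. The embryo meristem gene OSH1 stood at 8.15 in embryo and 3.28 in endosperm at 0 h, and at 8.35 and 3.72 at 4 h. Of the other embryo markers measured, CHLP stood at 8.65 in embryo and 4.16 in endosperm at 0 h, and EMP1 was high in both tissues at 14.06 and 13.47. The 4 aleurone and scutellum markers had medians of 9.23 at 0 h and 9.65 at 4 h in endosperm and of 7.58 and 9.72 in embryo. Among them, from 0 h to 4 h in endosperm, AMY1A went from 7.33 to 9.51, GAMYB from 8.66 to 9.80 and AMY3A from 9.79 to 9.13. The chalcone synthase and isomerase genes CHS1 and CHI, used as pericarp markers, had medians of 7.48 and 6.67 in embryo and of 5.10 and 4.39 in endosperm at these times. The difference between the 3′ and 5′ probe sets of control genes was 3.0 in endosperm at 0 h, 3.29 at 4 h and 3.83 at 24 h, against 2.60, 2.42 and 2.39 in embryo. The part of these markers and of RNA quality in the results below was not tested. In whole tissues, fewer cells of a type and less RNA per cell cannot be told apart.

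In embryo, the median level of the 150 genes went from 4.01 at 0 h to 8.56 at 4 h, then through 6.78 (8 h), 5.57 (12 h) and 5.24 (16 h) to 4.94 (24 h). The dry embryo held little of many of these transcripts, since 75 of the 150 means were below 4 at 0 h and 0 were at 4 h. The rise to 4 h ranged from 2.16 to 6.96 on the log2 scale with a median of 3.58. Scores ran from 6.04 down to 2.16, with 22 genes at 4 or more, 41 from 3 to 4 and 87 below 3. Just inside the threshold lay LOC4339323, LOC4352906 and LOC4326856, all at a score of 2.16, and just outside lay LOC4340676 at 2.15 and LOC4344694 and LOC4339675 at 2.14.

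For 140 of the 150 genes, all 3 embryo arrays at 4 h lay above all 15 arrays of the other times, and for the other 10 the 4 h and 8 h arrays overlapped. The rule required the highest embryo mean at 4 h, so this separation is in part built in. Its share over all genes was not counted. The second highest mean was at 8 h for 146 genes. The median share of the log2 rise that remained was 58.1% by 8 h and 20.5% by 12 h, then 16.4% by 16 h and 6.28% by 24 h. The decline was uneven: at 8 h, 20 genes kept under 25% of the rise and 33 kept over 75%. At 24 h, 93 genes were within 1 of their dry-seed level, 45 were at least 1 above it and 12 were at least 1 below it. Within the embryo groups, replicate 5 was the highest of the 3 arrays at 12 h for 101 of the genes and replicate 1 was the highest at 16 h for 85.

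**Figure D1:**
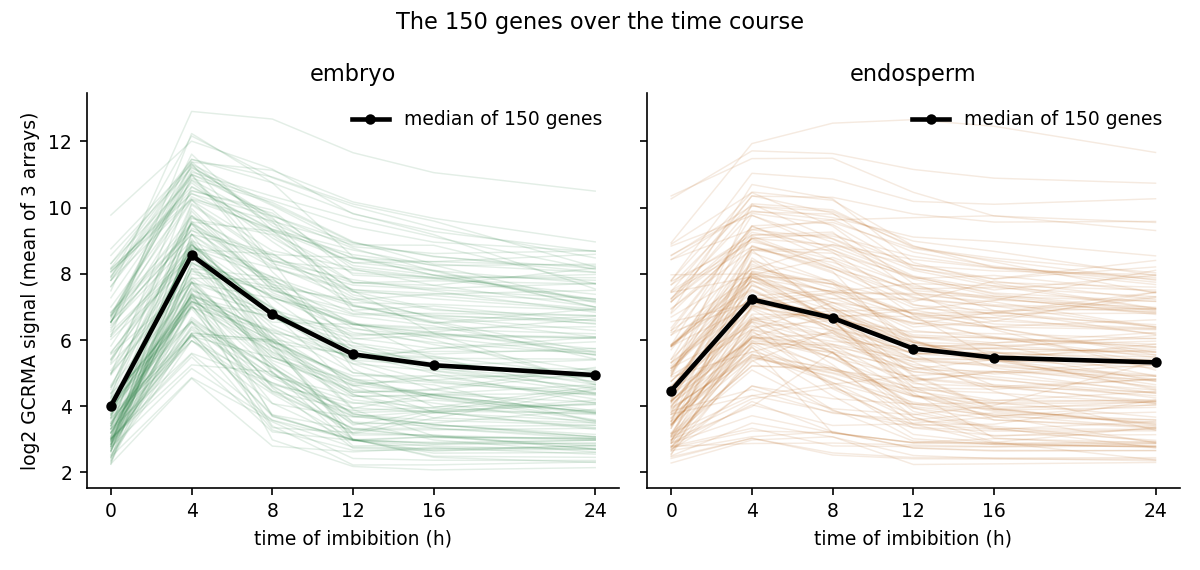
Mean log2 GCRMA signal of each of the 150 genes (thin lines, mean of 3 arrays) and their median (black) against hours of imbibition, in embryo (left) and endosperm (right). The embryo median goes from 4.01 at 0 h to 8.56 at 4 h and 4.94 at 24 h, which the choice of genes fixes, and the endosperm median goes from 4.47 to 7.22 and 5.32.

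In endosperm most of the same genes rose as well. Their median level went from 4.47 at 0 h to 7.22 at 4 h, then through 6.67 (8 h), 5.74 (12 h) and 5.47 (16 h) to 5.32 (24 h). Of the 150 genes, 131 were called higher at 4 h than at 0 h and 0 were called lower, where a call requires an adjusted p below 0.05 and a log2 difference of at least 1. Among all rice probe sets 3.27% were called higher and 0.261% lower, and among the brightest probe sets of all genes 6.95% and 0.307%. The 150 differences lay between 0.03 and 5.54 with a median of 2.30, and the median over all genes was -0.02. The standard errors of these differences ranged from 0.11 to 0.58. For 146 of the genes the 3 arrays at 4 h lay above the 3 at 0 h, which held for 20.2% of all genes.

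**Figure D2:**
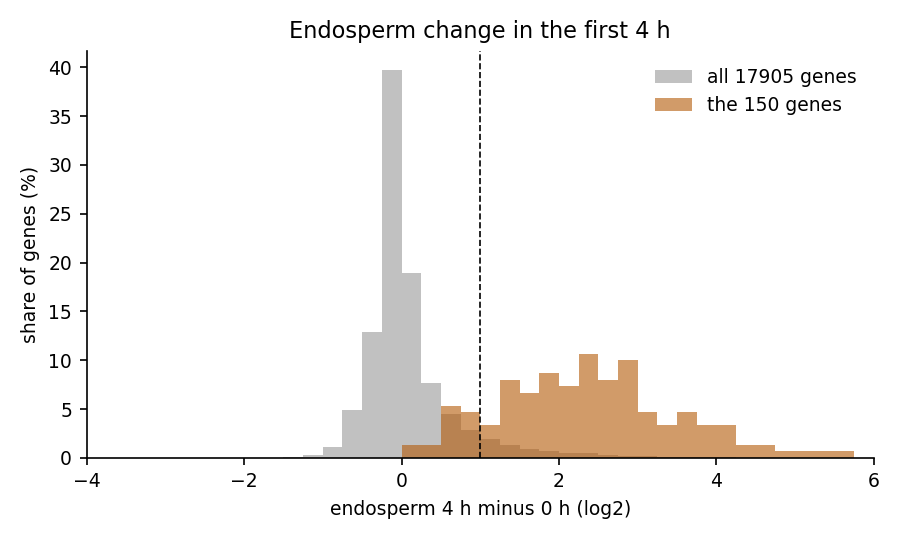
Distribution of the endosperm difference between 4 h and 0 h (log2, bins of 0.25 wide) for all 17905 genes (grey) and for the 150 genes (orange), each as a share of its own set in percent, with the dashed line at the minimum difference of 1. The 150 genes centre on 2.30 and all genes on -0.02.

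The endosperm rise was graded with the size of the embryo peak. Of the genes peaking at 4 h in embryo, 87.3% of those ranked 1 to 150 by score were called higher in endosperm at 4 h. The share was 67.3% for ranks 151 to 300, 52.7% for ranks 301 to 600, 25.7% for ranks 601 to 1200 and 8.67% for ranks 1201 to 2215. The median endosperm difference over these groups went from 2.30 to 1.46, 1.05, 0.59 and 0.21. Ranks come from embryo arrays and calls from endosperm arrays, but both read the same probe sets.

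**Figure D3:**
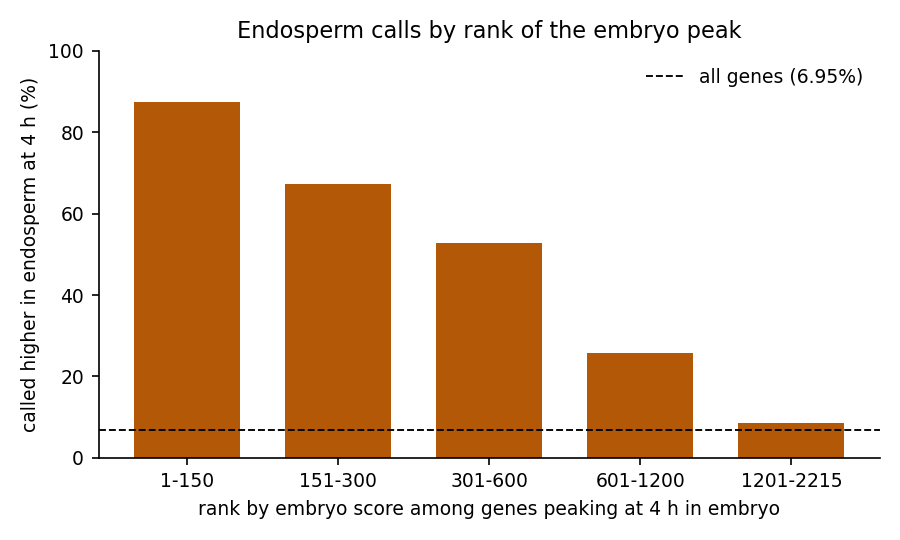
Share of genes called higher in endosperm at 4 h than at 0 h (percent, bars) by rank of the embryo score among genes with their highest embryo mean at 4 h. The bars step down from 87.3% to 8.67%, and the dashed line marks the 6.95% of all genes.

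The timing was shared in part. In endosperm, 121 of the 150 genes (80.7%) had their highest mean at 4 h, against 12.6% of all genes and 52.9% of the other genes that peaked at 4 h in embryo. A further 22 peaked at 8 h in endosperm, and 7 peaked at 12, 16 or 24 h. Over the 6 times, 138 of the 150 changed in endosperm by the F test with a range of at least 1, against 17.2% of all rice probe sets and 36.8% of all genes.

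From 4 h to 8 h, 23 of the genes were called lower in endosperm and 1 higher, beside 0.906% and 1.75% of all rice probe sets and 1.59% and 4.09% of all genes. From 4 h to 24 h, 110 were called lower and 0 higher, beside 4.65% and 5.61% of probe sets and 9.03% and 13.3% of genes. The call of 0 higher became 1 when the minimum difference was dropped. Between 0 h and 24 h, 43 were called higher and 10 lower, beside 7.33% and 4.57% of probe sets and 17.2% and 8.57% of genes. Without replicate 1 at 24 h the number called lower was 4, and without replicate 3 it was 6. These comparisons share arrays: the rise and the later fall both use the 4 h arrays, and the rise and the net change both use the 0 h arrays. There were 104 genes called both higher at 4 h than at 0 h and lower at 24 h than at 4 h. The share of all genes with both calls was not counted. It cannot exceed the 6.95% called higher at 4 h.

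The endosperm arrays of a time were not alike. At 0 h the median of the 150 genes was 4.22, 4.89 and 4.53 in replicates 1, 2 and 3, and replicate 2 was the highest of the 3 for 97 genes. At 12 h the medians were 5.35, 6.03 and 5.84, with replicate 1 the lowest for 127 genes and replicate 2 the highest for 119, and at 24 h replicate 2 was the highest for 104. Without replicate 2 at 0 h, 132 genes were called higher at 4 h in place of 131. Within each of the 3 harvest days that held both times, the median difference from 0 h to 4 h was 2.52, 2.23 and 2.16, and 137, 134 and 128 genes were at least 1 higher. The net change from 0 h to 24 h had a median of -0.03 within one harvest day and 0.58 within another.

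The rise was larger in embryo than in endosperm for 142 genes and larger in endosperm for 8. This comparison uses the embryo values that chose the genes and has no test, and 75 embryo and 59 endosperm means at 0 h lay below 4, near the floor, where the size of a rise is not well measured. Over the 150 genes the 4 h rise in the tissues correlated with a Spearman rho of 0.47 and the change from 4 h to 8 h with a rho of 0.72. The points share probe sets, and therefore floors and probe affinities. The share of the rise that remained, again given without a test, was larger in endosperm: among 131 genes that rose by at least 1 there, its median was 79.9% at 8 h and 39.9% at 12 h, against 59.5% and 23.9% for the same genes in embryo. More of the rise remained at 8 h in endosperm than in embryo for 116 of the 131. At 16 h the medians were 28.8% in endosperm and 19.5% in embryo, with more left in endosperm for 79 genes, and at 24 h they were 16.8% and 11.9%, with more left in endosperm for 78. The choice of genes with a high embryo value at 4 h and a low one at 24 h itself lowers the embryo share.

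**Figure D4:**
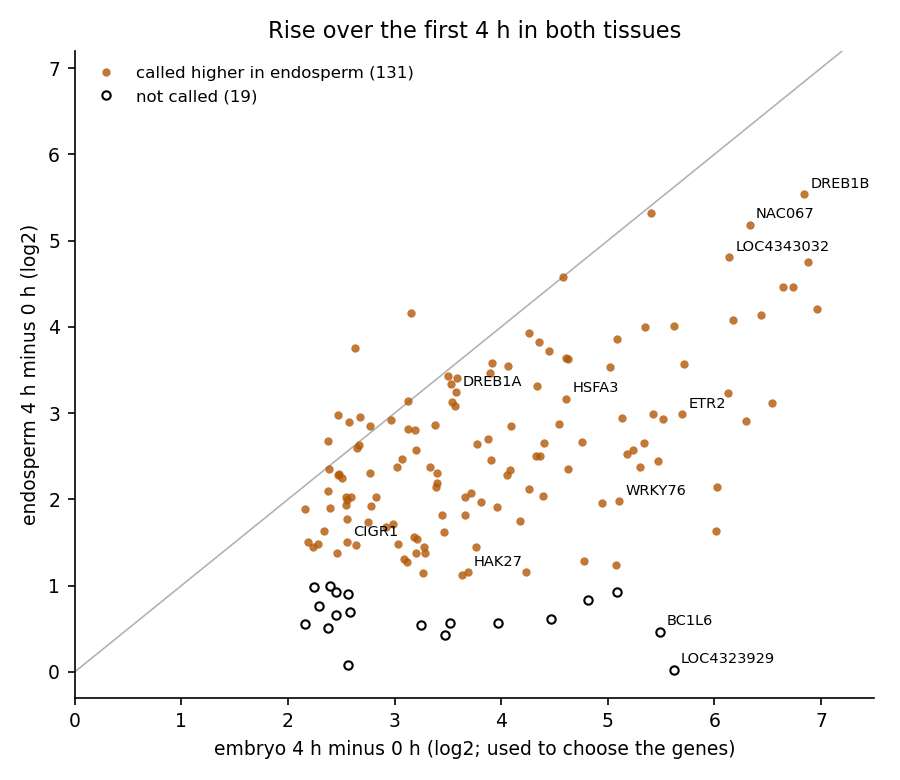
Log2 difference between 4 h and 0 h in embryo (horizontal) and endosperm (vertical) for the 150 genes, filled where called higher in endosperm and open where not, with the line of equal change. Most points lie below the line, and the open points at the lower right include BC1L6 and LOC4323929, which were not called in endosperm.

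How fast a gene declined in embryo went with its decline in endosperm. Of the 20 genes that kept under 25% of the rise at 8 h in embryo, 11 were called lower at 8 h than at 4 h in endosperm, with a median difference of -1.10. Of the 97 genes between 25% and 75%, 12 were called lower, with a median of -0.54. Of the 33 that kept over 75%, 0 were called lower and 1 was called higher, with a median of -0.04. The net endosperm change from 0 h to 24 h had a like order in its counts. Of the 45 genes at least 1 above the dry-seed level in embryo at 24 h, 25 were called higher and 0 lower. Of the 93 genes within 1 of it, 18 were called higher and 7 lower, and of the 12 at least 1 below it, 0 and 3. Among all genes the shares were 17.2% and 8.57%. The median net changes were 1.23, 0.02 and -0.05, so the last 2 classes hardly differed. The classes rest on embryo means that also chose the genes.

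Transcription factors include some of the highest scores. WRKY76 (LOC4347069), a WRKY factor known as a repressor of rice defence genes, ranked 4 by score. Its embryo arrays read 2.22, 2.43 and 2.37 at 0 h, 7.55, 7.41 and 7.37 at 4 h, and 3.01, 2.21 and 3.74 at 8 h, so that 12.7% of the rise was left at 8 h. In endosperm it read 5.51, 5.14 and 5.32 at 0 h, 7.51, 7.27 and 7.11 at 4 h, 6.17, 6.59 and 6.09 at 8 h, and 3.90, 4.84 and 4.45 at 24 h. The dry endosperm thus already held a clear signal while the dry embryo was at the floor, and no 4 h array overlapped a 0 h array. The endosperm rise was 1.98 ± 0.28 (log2 difference ± standard error, n = 3 arrays a group, adjusted p = 9.68e-06), and the difference from 4 h to 24 h was -2.90 ± 0.28 (adjusted p = 4.69e-09).

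WRKY24 (LOC4327518), a WRKY factor of hormone signalling in rice aleurone cells, fell slowly in endosperm. Its embryo share of the rise left at 8 h was 59.5%, near the median of 58.1%. In embryo it read 3.03, 4.05 and 4.27 at 0 h, 7.28, 7.08 and 7.19 at 4 h and 4.82, 3.46 and 4.37 at 24 h. In endosperm it read 3.84, 4.20 and 3.99 at 0 h, 6.41, 6.49 and 6.04 at 4 h and 5.63, 6.0 and 5.49 at 24 h. The endosperm arrays at 24 h all stayed above those at 0 h. The rise was 2.30 ± 0.31 (adjusted p = 3.28e-06) and the difference between 24 h and 4 h was -0.60 ± 0.31, which was not called (adjusted p = 0.199).

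DREB1A and DREB1B belong to the AP2/ERF family and are known for switching on cold and drought responses. DREB1B (LOC4347618) rose in endosperm from arrays that all lay below 4 in the dry seed, so the size of its rise is not ranked. It read 2.36, 3.95 and 2.51 at 0 h, 8.57, 8.34 and 8.53 at 4 h, 6.54, 7.28 and 7.14 at 8 h and 5.97, 6.34 and 6.10 at 24 h. The 4 h arrays lay close together and far above the dry seed, and the 24 h arrays lay between. The rise was 5.54 ± 0.58 (adjusted p = 6.68e-08), and the 24 h level stayed 3.19 ± 0.58 above 0 h (adjusted p = 6.71e-05).

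In embryo DREB1B read 2.65, 3.96 and 2.54 at 0 h, 9.88, 9.66 and 10.13 at 4 h, and 7.93, 6.65 and 5.13 at 24 h, with a wide spread at 24 h. DREB1A (LOC4347620) lies near DREB1B on chromosome 9, with 1 unmeasured gene between them. It did not stay up: its embryo arrays read 5.52, 5.66 and 4.96 at 0 h, 8.75, 8.89 and 9.24 at 4 h, 4.95, 5.95 and 5.96 at 8 h and 4.05, 3.10 and 4.25 at 24 h. The 24 h arrays were all below those of the dry embryo. In endosperm DREB1A read 4.20, 4.57 and 3.17 at 0 h and 7.48, 7.02 and 7.16 at 4 h, without overlap, a rise of 3.24 ± 0.40 (adjusted p = 1.01e-06). It was lower again by 8 h, with a difference of -1.47 ± 0.40 (adjusted p = 0.0119).

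NAC067 (LOC4342753), a NAC transcription factor, had its highest mean at 4 h in both tissues. In embryo it read 3.52, 4.99 and 4.42 at 0 h, 10.72, 10.55 and 10.65 at 4 h and 9.09, 7.90 and 7.88 at 24 h. In endosperm it read 3.76, 6.10 and 4.89 at 0 h, 10.31, 10.01 and 9.99 at 4 h and 7.62, 8.35 and 7.90 at 24 h. The 3 dry-seed arrays of endosperm were spread out, and all were far below the 4 h arrays. The endosperm rise was 5.19 ± 0.41 (adjusted p = 5.91e-10), and the 24 h level stayed 3.04 ± 0.41 above 0 h (adjusted p = 9.60e-07).

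HSFA3 (LOC4329526), a class A heat stress transcription factor, ended below its dry-seed level. In embryo it read 6.56, 6.89 and 6.71 at 0 h, 11.45, 11.10 and 11.44 at 4 h, 4.40, 4.16 and 6.83 at 12 h and 3.99, 2.99 and 5.16 at 24 h. The endosperm values were 6.05, 6.83 and 5.97 at 0 h, 9.53, 9.46 and 9.36 at 4 h and 3.95, 5.45 and 4.10 at 24 h. In both tissues the 24 h arrays lay below the 0 h arrays without overlap. The endosperm rise was 3.17 ± 0.56 (adjusted p = 1.55e-04), and the difference between 24 h and 0 h was -1.78 ± 0.56 (adjusted p = 0.0138).

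BZIP50 (LOC4341554), a bZIP factor of the endoplasmic reticulum stress response in rice, was tightly replicated. Its endosperm arrays were at 6.90, 6.99 and 6.97 at 0 h, 8.78, 8.74 and 8.67 at 4 h and 6.95, 7.51 and 7.03 at 24 h. Its rise was 1.78 ± 0.16 (adjusted p = 3.18e-09), with the 24 h arrays back near the dry seed. SAP11 (LOC4345973), a stress-associated protein with A20 and AN1 zinc fingers, read 4.69, 5.68 and 4.87 at 0 h and 8.52, 8.46 and 8.22 at 4 h in endosperm, without overlap. It rose by 3.32 ± 0.28 (adjusted p = 1.32e-09).

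**Figure D5:**
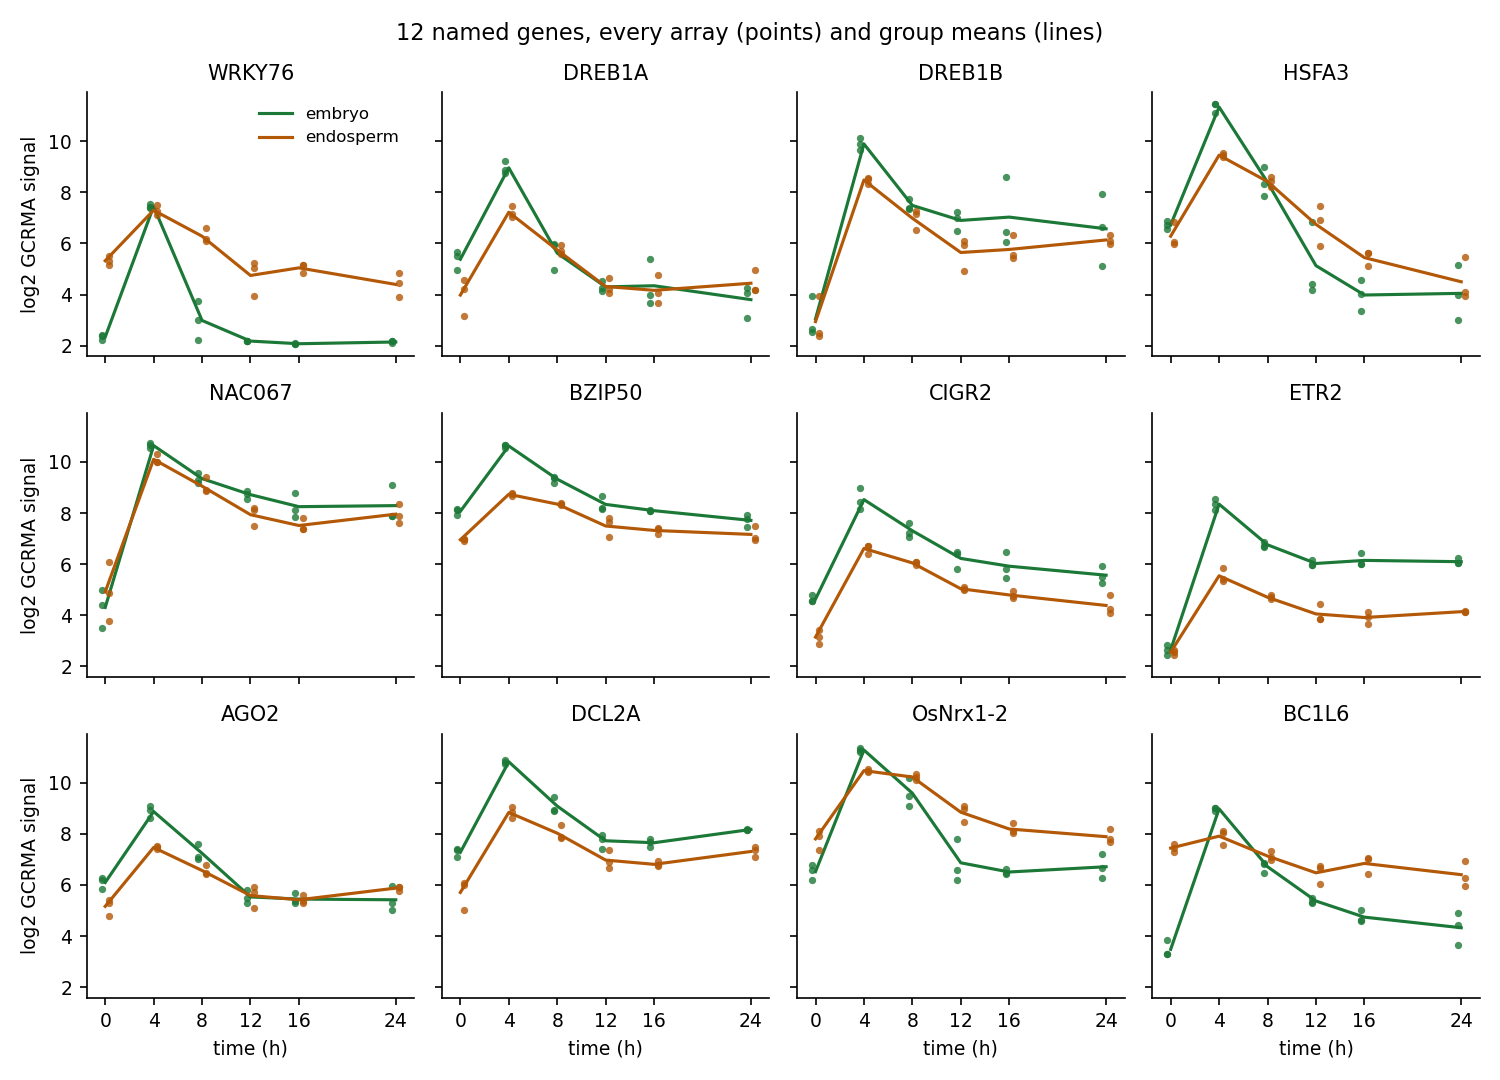
Log2 GCRMA signal of 12 named genes in every array (points) and as group means (lines) against hours of imbibition, green for embryo and orange for endosperm. All 12 peak at 4 h in both tissues, and for BC1L6 the endosperm line is nearly flat from 0 h to 4 h (7.43, 7.29 and 7.61, then 7.58, 8.02 and 8.13).

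Several further named genes were picked out after their values had been seen, because they carry a name: CIGR1, CIGR2, AGO2, DCL2A, PSK5, ACA7, HAK16, HAK27 and OC-II. CIGR1 and CIGR2 encode GRAS family regulators known in rice as inducible by chitin and gibberellin. CIGR2 (LOC4343735) read 3.14, 3.43 and 2.88 at 0 h, 6.73, 6.73 and 6.39 at 4 h and 4.26, 4.79 and 4.10 at 24 h in endosperm, without overlap between the times. Its rise was 3.47 ± 0.24 (adjusted p = 4.70e-11). CIGR1 (LOC4343521), already well expressed in dry endosperm at 8.44, 8.62 and 8.58, read 10.02, 10.16 and 9.98 at 4 h, a rise of 1.51 ± 0.16 (adjusted p = 8.36e-08).

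AGO2 and DCL2A, both known from RNA silencing, were each called higher in endosperm at 4 h. AGO2, an Argonaute that carries small RNAs, read 5.84, 6.27 and 6.18 in embryo at 0 h and 8.92, 8.62 and 9.07 at 4 h. In endosperm AGO2 read 5.30, 5.40 and 4.80 at 0 h and 7.47, 7.53 and 7.40 at 4 h, a rise of 2.30 ± 0.22 (adjusted p = 1.62e-08). DCL2A, a Dicer-like enzyme that cuts double-stranded RNA, read 5.04, 6.09 and 5.99 at 0 h and 8.87, 9.04 and 8.60 at 4 h in endosperm. Its rise was 3.13 ± 0.22 (adjusted p = 6.46e-11), again without overlap. At 24 h DCL2A was still 1.60 ± 0.22 above 0 h in endosperm (adjusted p = 9.49e-07), and the difference of AGO2, 0.71 ± 0.22, was under the minimum of 1 and not called (adjusted p = 0.0133). A second probe set of DCL2A also peaked at 4 h in embryo, with a score of 2.29.

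ETR2 (LOC4335058), an ethylene receptor, went from the floor to a moderate level. Its embryo arrays read 2.66, 2.82 and 2.46 at 0 h, 8.57, 8.12 and 8.36 at 4 h and 6.03, 6.04 and 6.23 at 24 h. In endosperm the arrays gave 2.47, 2.58 and 2.64 at 0 h, 5.36, 5.87 and 5.41 at 4 h and 4.13, 4.14 and 4.16 at 24 h. In both tissues the 24 h arrays settled between the dry seed and the peak. The endosperm rise was 2.99 ± 0.15 (adjusted p = 6.53e-13), and 24 h was 1.58 ± 0.15 above 0 h (adjusted p = 3.74e-09).

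PSK5 (LOC4351500), a precursor of the peptide growth factor phytosulfokine, had its highest mean at 4 h in embryo. The embryo values were 7.10, 7.96 and 7.39 at 0 h, 13.10, 12.79 and 12.82 at 4 h and 10.56, 10.20 and 10.73 at 24 h. Endosperm arrays read 7.31, 9.49 and 10.02 at 0 h, 11.92, 12.05 and 11.84 at 4 h, 12.63, 12.66 and 12.69 at 12 h and 11.48, 11.89 and 11.63 at 24 h. The endosperm course was a plateau with its highest mean at 12 h, and no 0 h array overlapped a later one. The rise to 4 h was 3.0 ± 0.37 (adjusted p = 8.76e-07), and the difference between 24 h and 4 h was -0.27 ± 0.37, not called (adjusted p = 0.816). The endosperm arrays at 0 h were spread out, while these errors rest on a spread pooled over all groups.

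HAK27 and HAK16, members of a potassium transporter family, are adjacent on chromosome 3 and had unlike courses. HAK27 read 2.81, 3.19 and 3.20 at 0 h, 4.56, 4.29 and 3.82 at 4 h and 2.74, 3.22 and 2.95 at 24 h in endosperm, a rise of 1.16 ± 0.24 (adjusted p = 0.00101) that was no longer called without replicate 1 at 4 h (0.99). HAK16 read 2.58, 2.74 and 2.75 at 0 h, 4.53, 4.64 and 4.68 at 4 h, 3.34, 4.00 and 4.43 at 8 h and 5.19, 5.25 and 5.63 at 24 h in endosperm. The HAK16 arrays at 24 h were thus the highest, and the rise to 4 h was 1.93 ± 0.20 (adjusted p = 6.63e-08).

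ACA7, a calcium-transporting ATPase, read 2.38, 2.71 and 2.84 at 0 h and 6.16, 6.16 and 6.34 at 4 h in endosperm, without overlap, a rise of 3.58 ± 0.43 (adjusted p = 7.59e-07). Its embryo arrays read 2.81, 3.31 and 3.18 at 0 h, 7.06, 6.88 and 7.11 at 4 h and 5.68, 3.19 and 3.68 at 16 h, where replicate 1 stood apart.

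Among enzymes and other proteins, CCR1 (LOC4331085), a cinnamoyl-CoA reductase of the monolignol pathway, had its highest endosperm mean at 24 h. Its endosperm arrays read 4.56, 5.62 and 5.25 at 0 h, 7.42, 7.94 and 7.56 at 4 h, 6.37, 6.78 and 6.90 at 8 h and 7.86, 8.03 and 8.43 at 24 h. It rose by 2.50 ± 0.34 (adjusted p = 3.82e-06), and 24 h stayed 2.96 ± 0.34 above 0 h (adjusted p = 5.26e-08). The 24 h and 4 h arrays overlapped.

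GSTU1, a glutathione S-transferase, ended low in endosperm: it read 7.01, 7.54 and 5.85 at 0 h, 9.42, 9.28 and 8.82 at 4 h, 9.32, 9.30 and 9.17 at 8 h and 5.14, 5.09 and 5.04 at 24 h. Its rise was 2.37 ± 0.37 (adjusted p = 3.62e-05), and 24 h was 1.71 lower than 0 h (difference -1.71 ± 0.37, adjusted p = 5.98e-04). The 24 h arrays were nearly identical and lay below all others.

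OsNrx1-2, a nucleoredoxin of the thioredoxin superfamily, read 7.37, 8.11 and 7.93 at 0 h, 10.53, 10.48 and 10.41 at 4 h and 10.23, 10.33 and 10.11 at 8 h in endosperm. It rose by 2.67 ± 0.30 (adjusted p = 2.54e-07) and the difference from 4 h to 8 h was -0.25 ± 0.30 (adjusted p = 0.772). OC-II, an oryzacystatin that inhibits cysteine proteases, was abundant in dry endosperm at 10.36, 10.47 and 10.23 and read 11.77, 11.38 and 11.30 at 4 h. Its rise of 1.13 ± 0.34 (adjusted p = 0.0230) was called in the full set of arrays, and was no longer called without replicate 1 at 4 h (0.98), without replicate 3 at 0 h (1.07) or after centring on the 75th percentile (0.93).

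SAT4 (LOC4331941) read 3.66, 3.71 and 3.78 at 0 h, 8.53, 8.63 and 9.03 at 4 h and 5.10, 4.60 and 5.23 at 8 h in embryo. The endosperm values were 4.23, 4.99 and 4.17 at 0 h, 7.98, 7.90 and 8.10 at 4 h and 3.78, 4.50 and 3.81 at 24 h, so the 24 h arrays overlapped the dry seed. Its rise was 3.53 ± 0.28 (adjusted p = 5.91e-10).

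Most of the highest scores belong to genes with a locus identifier only. LOC4343032 ranked first. Its embryo arrays read 2.77, 2.76 and 2.86 at 0 h, 8.98, 8.92 and 8.91 at 4 h, 5.18, 4.77 and 5.17 at 8 h and 2.78, 2.73 and 2.88 at 12 h, which is a pulse from the floor and back within 12 h. In endosperm LOC4343032 read 2.66, 4.03 and 2.58 at 0 h, 8.21, 7.70 and 7.79 at 4 h and 2.52, 2.95 and 2.89 at 24 h. Its endosperm rise was 4.81 ± 0.34 (adjusted p = 7.27e-11) and the difference from 4 h to 24 h was -5.11 ± 0.34 (adjusted p = 4.53e-12). Its probe set is one of 7 among the 150 that Affymetrix marks as open to cross-hybridisation with unrelated transcripts.

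LOC4347445 was low at 0 h in both tissues. The embryo values were 3.31, 3.02 and 3.22 at 0 h, 8.00, 7.64 and 7.65 at 4 h and 3.06, 3.79 and 4.23 at 8 h. Its endosperm arrays were at 3.28, 4.92 and 3.23 at 0 h, 8.60, 8.20 and 8.36 at 4 h, 6.85, 7.37 and 6.69 at 8 h and 3.16, 3.89 and 3.19 at 24 h. The embryo was almost back at the floor at 8 h while the endosperm arrays were still above 6.5. The endosperm rise was 4.58 ± 0.34 (adjusted p = 1.70e-10).

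The endosperm arrays of LOC4326578 read 2.81, 4.95 and 2.84 at 0 h, 9.12, 8.78 and 8.66 at 4 h and 3.61, 4.87 and 3.78 at 24 h, a rise of 5.32 ± 0.42 (adjusted p = 5.91e-10) with replicate 2 high at 0 h. LOC107278748 read 3.02, 2.37 and 2.99 at 0 h, 9.93, 9.50 and 9.59 at 4 h and 9.10, 9.38 and 9.06 at 8 h in embryo, and so kept 92.8% of its rise at 8 h. Its endosperm rise was 4.75 ± 0.42 (adjusted p = 4.64e-09). LOC4338032 rose by 4.46 ± 0.34 in endosperm (adjusted p = 2.69e-10).

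LOC9270116 was called lower in endosperm by 8 h. It read 2.87, 2.92 and 2.89 at 0 h, 6.22, 5.47 and 5.72 at 4 h and 2.91, 3.68 and 2.98 at 8 h there. The 8 h arrays were thus back at the floor but for replicate 2. In embryo it still read 6.04, 5.81 and 5.60 at 8 h. Its endosperm rise was 2.91 ± 0.26 (adjusted p = 4.04e-09) and the difference from 4 h to 8 h was -2.62 ± 0.26 (adjusted p = 9.13e-08).

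Some genes stayed up and others fell below the dry seed. In embryo LOC4328700 read 2.45, 3.18 and 2.32 at 0 h, 9.51, 8.89 and 9.16 at 4 h and 6.26, 7.12 and 7.61 at 24 h. In endosperm it stayed 2.18 ± 0.28 above 0 h at 24 h (adjusted p = 5.30e-07). LOC4324829 gained 4.17 in embryo from 0 h to 24 h and 1.96 ± 0.41 in endosperm (adjusted p = 3.59e-04).

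At the other end, LOC4345852 read 7.70, 7.72 and 7.98 at 0 h, 10.11, 10.25 and 10.38 at 4 h and 4.95, 4.63 and 5.25 at 24 h in embryo, a net change of -2.86. In endosperm the arrays gave 8.87, 8.88 and 8.76 at 0 h, 9.75, 9.71 and 9.83 at 4 h and 7.15, 7.78 and 7.43 at 24 h. The difference of 0.92 ± 0.25 between 4 h and 0 h fell short of the minimum difference (adjusted p = 0.0115), and the net change was -1.39 ± 0.25 (adjusted p = 6.58e-05). LOC4332145 was 2.69 lower at 24 h than at 0 h in embryo (difference -2.69). Endosperm arrays read 9.03, 8.99 and 8.66 at 0 h, 10.52, 10.46 and 10.38 at 4 h and 5.79, 6.68 and 6.01 at 24 h, a net change of -2.73 ± 0.37 (adjusted p = 8.37e-07).

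The 19 genes not called higher in endosperm at 4 h were of several kinds. Of these, 10 had endosperm means below 4 at 4 h, close to the floor of the method, and 7 had an adjusted p below 0.05 with a difference under 1. LOC4331784 is one of those near the floor: it read 7.60, 6.77 and 6.95 at 4 h in embryo, and 2.41, 2.43 and 2.43 at 0 h and 3.59, 3.01 and 2.50 at 4 h in endosperm. Its endosperm difference was 0.61 ± 0.23 (adjusted p = 0.0792).

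Others already had a clear signal in dry endosperm. LOC4323929 read 3.08, 2.08 and 3.71 at 0 h and 8.31, 8.63 and 8.80 at 4 h in embryo, but 7.99, 7.75 and 8.17 at 0 h and 7.64, 7.89 and 8.46 at 4 h in endosperm. The endosperm arrays overlapped, with a difference of 0.03 ± 0.38 (adjusted p = 0.982) whose sign turned under several alternatives. A second, dimmer probe set of LOC4323929 had its highest embryo mean at 0 h. BC1L6 (LOC4343844), named for the COBRA-like cell wall family, read 3.84, 3.29 and 3.32 at 0 h and 9.01, 8.90 and 9.03 at 4 h in embryo. Its endosperm difference was 0.47 ± 0.26 (adjusted p = 0.250), with overlapping arrays. The 1 gene called higher at 8 h than at 4 h in endosperm, LOC4337500, was named for that after its values were seen, and read 4.31, 4.22 and 3.44 at 4 h and 5.56, 5.57 and 5.78 at 8 h (1.65 ± 0.25, adjusted p = 3.50e-05).

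Gene families were followed through 31 lists matched by name, of which 8 held at least 1 of the 150 genes and 10 of the 150 were in a list. Names cover only part of each family. Of 6 named WRKY genes all 6 had their highest embryo mean at 4 h, which held for 12.4% of all genes. That peak is part of the rule that chose the genes, and 2 of the 6 are among the 150. The embryo count is therefore description only. In endosperm, 4 of the 6 were called higher at 4 h with 0 lower. Beside WRKY76 and WRKY24 these were WRKY51 (1.2 ± 0.16, adjusted p = 3.59e-06) and OsWRKY71 (1.18 ± 0.22, adjusted p = 2.56e-04), while OsWRKY62 had a difference of -0.21 ± 0.37. Their median difference was 1.19, against -0.02 over all genes. For every list the background is that 6.95% of all genes were called higher and 0.307% lower at 4 h.

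Of 11 named AP2/ERF and DREB genes, 4 were called higher and 0 lower, with a median of 0.99. DREB2D (1.19 ± 0.15, adjusted p = 1.33e-06) and AP2-5 (1.04 ± 0.14, adjusted p = 2.40e-06) were the other two. DREB2A, whose Arabidopsis relative acts in drought and heat responses, had a difference of -0.62 ± 0.20 and was not called. Of 8 NAC genes, 3 were called higher and 0 lower, with a median of 0.12. They were NAC067, NAC2 (1.78 ± 0.12, adjusted p = 7.84e-11) and NAC068 (1.53 ± 0.23, adjusted p = 2.67e-05).

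Heat shock factors moved both ways. Of 20, 2 were called higher (HSFA3 and HSF09, the latter by 1.27 ± 0.16) and 2 lower (HSF11 by -1.13 ± 0.15 and HSF2 by -1.10 ± 0.18), with a median of -0.34. Of 25 genes for heat shock proteins, 3 were called higher and 3 lower at 4 h, with a median of -0.41, and 0 were among the 150. Of 18 bZIP genes 2 were called higher and 0 lower with a median of -0.05. Of 6 glutathione S-transferase genes 2 were called higher and 0 lower with a median of -0.09, GSTU1 and GSTU6 (2.14 ± 0.20). The list for C2H2 zinc fingers matched only 4 SAP genes through older names, of which SAP11 was called. In the phenylpropanoid list 2 of 24 were called higher, with a median of -0.02. That list was matched by short names, which also took in CARB and OsRCCR1, so not all 24 belong to the pathway. Shares near the background, as in the bZIP and phenylpropanoid lists, are not read as a result about the list.

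Some lists without any of the 150 genes had calls too, to be read beside the 6.95% of all genes called higher and 0.307% lower. Of 77 genes for calcium sensors and kinases, 15 were called higher and 0 lower in endosperm at 4 h, with a median of 0.03. Of 66 genes of abscisic acid synthesis and signalling, 8 were called higher and 1 lower, with a median of 0.04, which is not read as a result about the list. Of 10 MYB genes, 3 were called higher and 0 lower, with a median of 0.23. Other lists had no call at 4 h in either direction, among them 13 bHLH genes and 26 genes of cytokinin metabolism and response.

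Some of the genes are near each other in the genome. Among the 150, 10 pairs lay within 5 protein-coding genes of one another and 3 pairs were adjacent: HAK27 with HAK16, LOC4337228 with LOC4337229, and LOC9271885 with LOC9270116. How many such pairs other sets of 150 genes would hold was not counted, so the pairs are not read as a trait of these genes. Neighbouring genes of a family can share sequence, so array signals of such pairs may not be independent. LOC4337229 read 4.57, 5.47 and 4.86 at 0 h and 11.11, 10.77 and 11.09 at 4 h in embryo, and its endosperm rise was 2.15 ± 0.20 (adjusted p = 8.24e-09). That call was lost when all probe sets of the gene were averaged (0.96).

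Other probe sets of the same genes were read on the same embryo arrays that chose the genes. They are therefore no independent check, and the share over further probe sets of all genes was not counted. For 28 of the 150 genes the array held 33 further probe sets, of which 23 had their highest embryo mean at 4 h and 15 had a score of at least 1. Of the 10 that did not peak at 4 h, 8 had all embryo means below 4.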

How the data were processed

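Per the submitters' processing notes, the deposited log2 values were made by the authors with GCRMA; neither its version nor how arrays were grouped for it is given in the sources used here. No further normalisation was applied. Of 57381 probe sets, 123 Affymetrix controls and 64 reporters were left out, which left 57194. The array annotation gave 1 gene for 22436 of these, several for 95 and none for 34663. Genes were named through that annotation and the RefSeq gene table, which served for names and gene order alone. The genes, lists and tests were chosen with earlier results of these data known.

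One linear model per probe set, with 12 group means, was fitted over all 36 arrays with limma 3.58.1 in R 4.3.3, with empirical Bayes moderation. The p-values were adjusted by Benjamini-Hochberg over 57194 probe sets. Errors after ± are standard errors from the moderated variance. The 3 arrays a group limit precision. Replicate numbers pair the endosperm samples of 0 h and 4 h: same-numbered samples came from the same harvest day and their deviations correlated at 0.22, 0.13 and 0.15.

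Named genes were the 20 highest scores, up to 6 genes per list, the 10 largest called endosperm changes in each direction, the 3 genes just inside and just outside the threshold, the 10 highest and 10 lowest net embryo changes, and up to 10 genes with the largest endosperm peaks at 4 h. Genes outside the rule are said to be so where they appear. Promoter sequences were not analysed here. Alternatives were other blocks, moderation, filters, scalings, probe set summaries and arrays left out. The fit was tested on simulated data. Summaries used pandas 2.3.3 and numpy 2.4.6 in Python 3.11.15, and plots used matplotlib 3.10.9.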

Additional observations from a re-analysis of the deposited data

Results flagged for a closer look

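The 3 named genes below had an endosperm mean that rose and an embryo mean that fell between the same times. They are not the only genes with means of opposite direction, and the share over all genes was not counted. The difference between tissues was not tested, because the embryo arrays chose the genes. None of the 3 endosperm differences was called. PSK5 was 0.62 ± 0.37 higher at 8 h than at 4 h in endosperm (adjusted p = 0.404). It changed by -0.23 in embryo, where a mean below that of 4 h is fixed by the choice of genes. LOC4342626 was 0.47 ± 0.19 higher at 24 h than at 0 h in endosperm (adjusted p = 0.0564) and changed by -1.09 in embryo. HAK16 was 0.74 ± 0.20 higher at 24 h than at 4 h in endosperm (adjusted p = 0.00625), under the minimum of 1. It changed by -2.19 in embryo, where the fall is part of how it was chosen.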

How the results depend on the processing

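The count of 131 genes higher in endosperm at 4 h stayed between 126 and 139 under all alternatives run, and 0 were lower in each. With replicate numbers as a block the counts were 131 higher at 4 h than at 0 h, 25 lower at 8 h than at 4 h, 111 lower at 24 h than at 4 h, and 43 higher and 10 lower at 24 h than at 0 h, and this block changed no call count by over 1.5 times. The 23 genes lower at 8 h became 39 with centring on the 75th percentile and 46 with adjusted p alone. The 1 gene higher at 8 h became 3 with adjusted p alone and was 1 to 2 with arrays left out, 2 without replicate 2 at 8 h. With adjusted p alone, 1 gene was higher at 24 h than at 4 h. The 10 genes lower at 24 h than at 0 h became 18 with 75th percentile centring, 6 with spike-in centring, 21 with adjusted p alone, and 4 to 11 with arrays left out. These 2 scalings moved the median 4 h change of all probe sets to -0.22 and 0.30, and the others kept it within 0.05 of 0. The difference of LOC4323929, 0.03 as reported, was -0.17 with 75th percentile centring, -0.011 after quantile normalization, -0.40 with all probe sets averaged, and -0.21 to 0.21 with arrays left out; the cause was not tested. Of 58 named genes, 50 kept their direction and call under all alternatives run. Choosing the genes again gave 120 to 149 of the 150, the lowest when 12 h and 16 h entered the score. Low signals near the GCRMA floor and 3 arrays a group limit what can be called.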
